A study of Solanum lycopersicum with 12 samples.

Results

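Gene expression was compared between 2 tomato lines, Querubín FCA (Q) and Gema FCA (G), in 6 of the 12 RNA-seq libraries of a study that also included their reciprocal hybrids QxG and GxQ. The 3 libraries labelled parental line Q were set against the 3 labelled parental line G, and all 17887 genes of the count table were used. Both lines are recombinant inbred lines, that is, fixed lines bred from one cross, here between cultivated tomato (Solanum lycopersicum) and its wild relative Solanum pimpinellifolium. Each line therefore carries its own mosaic of cultivated and wild segments, and the parent of a given segment is not known from the labels. Plants were grown in a greenhouse with no treatment named, and each library came from the frozen mesocarp, the flesh of the fruit wall, of 1 red ripe fruit. The labels do not say from which plants or on which harvest days the fruits came, so the p-values measure the spread between these fruits. The 6 hybrid libraries entered the fit only to add to the estimate of spread, and they are compared with the parents at the end.

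A red ripe tomato has completed the burst of ethylene that starts ripening. By then the green plastids have become chromoplasts filled with the red carotenoid lycopene, and starch laid down earlier has been broken down. Pectin-degrading enzymes have softened the cell walls, and sugars, organic acids and volatiles set the flavour. Sugar content, acidity, colour and firmness are traits in which wild relatives and cultivated tomato are known to differ.

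Total counts ran from 15207931 to 25320267 in the 6 parental libraries. Levels below are CPM, that is, counts relative to the library total, scaled by TMM factors, which correct for differences in library composition. Because CPM are not corrected for transcript length, levels are compared between libraries and not between genes. The third Q library stood apart from the other Q libraries. Across genes, log2 CPM correlated at r = 0.987 between the first and second Q libraries, and the third correlated with these at 0.953 and 0.957. Correlations among the G libraries were 0.983 to 0.989, and those between a Q and a G library 0.935 to 0.948. The share of all counts held by the top 10 genes was 6.06% and 6.55% for the first and second Q libraries, 11.4% for the third and 11.1% to 12.1% for G. The TMM factors were 1.24 and 1.2 in the first and second Q libraries, 0.956 in the third, and 0.973 to 1.01 in G. Among the hybrids, 1436 genes had no count in the first QxG library, where every other library of the study had 31 to 338 such genes. Genes typical of ripe mesocarp were abundant in all 6 parental libraries. PSY1, the fruit phytoene synthase, lay at 4411 CPM or more in the whole study, and the pectate lyase PL at 2422 CPM or more in the parents.

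In the third Q library, 895 of the 12559 genes that averaged at least 5 CPM (7.13%) were more than 2-fold above or below both other Q libraries, 352 above and 543 below. The corresponding numbers were 54 and 37 genes for the other Q libraries and 57 to 104 for the G libraries. Of 11 pectin and cell wall genes at that level, 6 were above in the third Q library and 1 was below. PG2A, the polygalacturonase that breaks down pectin in ripening fruit, was at 1565 and 1918 CPM in the first and second Q libraries and at 7549 CPM in the third, against 3093, 2573 and 3502 CPM in G. The third Q library was thus above G, and the first and second were below G. The expansin gene EXP1 (565, 512 and 2059.7 CPM) and the endoglucanase gene CEL2 (780.2, 672 and 4021 CPM) showed the same single high Q fruit, and so did MAN4, XYL1 and TBG4. Among 6 ethylene synthesis genes, ACS2, ACO1 and ACO6 were above in that library, and ACS1A was below. Of 13 heat shock genes, 5 were above and 1 was below, and of 9 volatile genes 4 were above and 1 was below. Among the 6 phenylpropanoid genes at that level, HQT and the phenylalanine ammonia-lyase genes Solyc09g007900 and Solyc09g007920 were below, and both defence genes, NP24 and CHI9, were below too. None of the 6 reference genes, 17 ethylene perception genes, 14 sucrose cleavage genes, 9 starch genes or 15 organic acid genes stood apart there. The single seed marker at that level, the oleosin gene Solyc06g060840, was at 16.8 and 15.3 CPM in the first and second Q libraries, 126 CPM in the third, and 59.7, 71.0 and 86.1 CPM in G. What sets this fruit apart, such as its stage, its plant or its dissection, was not tested.

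**Figure D1:**
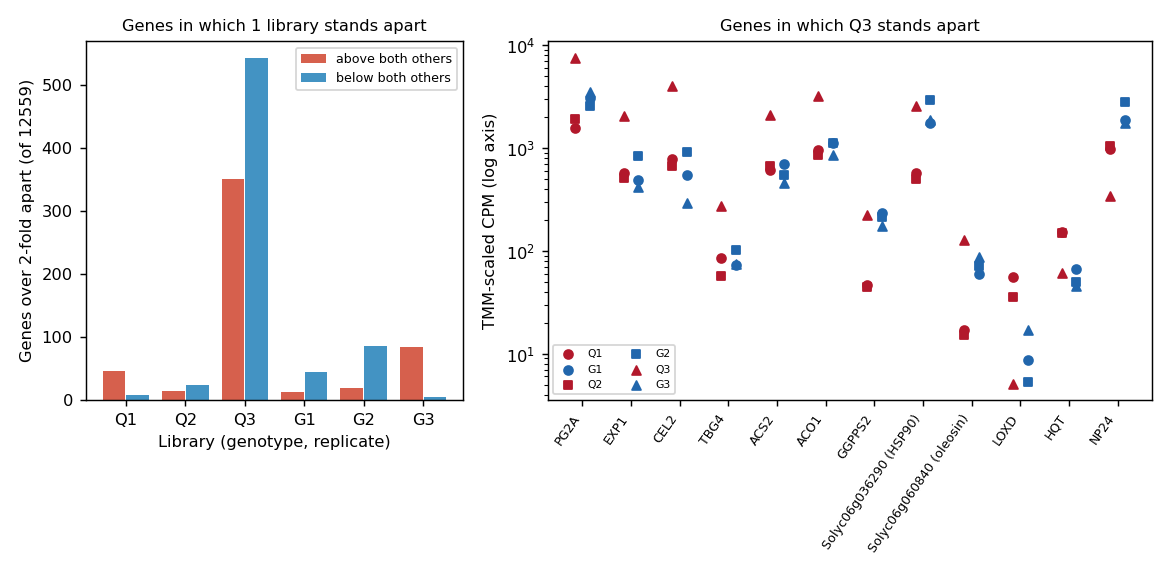
Left, the number of genes (of 12559 averaging at least 5 CPM) in which each parental library was more than 2-fold above (red bars) or below (blue bars) both others of its line. The third Q library reaches 352 and 543 genes, against at most 104 in all for any other. Right, TMM-scaled CPM on a log axis of 12 genes chosen after their values were seen, with Q libraries in red, G libraries in blue and the third library of each line as a triangle.

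The 2 lines differed in 1308 genes, which is 7.31% of those tested. In Q, 806 genes (4.51%) were higher and 502 (2.81%) were lower. These calls come from edgeR's quasi-likelihood F test with Benjamini-Hochberg adjustment over all genes, at an adjusted p under 0.05. All adjusted p-values below come from that test, and fold changes are given as Q over G with the log2 value and its standard error. Of the called genes, 925 differed by more than 2-fold, 673 of them higher and 252 lower in Q, and 475 by more than 4-fold. The higher and lower calls were unlike in level and size. The genes higher in Q had a median level of 8.86 CPM and a median change of 1.85 on the log2 scale, and 35.4% of them averaged under 5 CPM. Those lower in Q had a median level of 35.3 CPM and a median absolute change of 1.00, and 11.4% averaged under 5 CPM. The median log2 fold change over all genes was 0.00721. With scaling by library totals alone, that median moved to 0.202 and 82.2% of the calls were higher in Q, against 61.6% with TMM. In 6861 genes (38.4%) the Q and G libraries did not overlap, and 1298 of the called genes were among these.

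**Figure D2:**
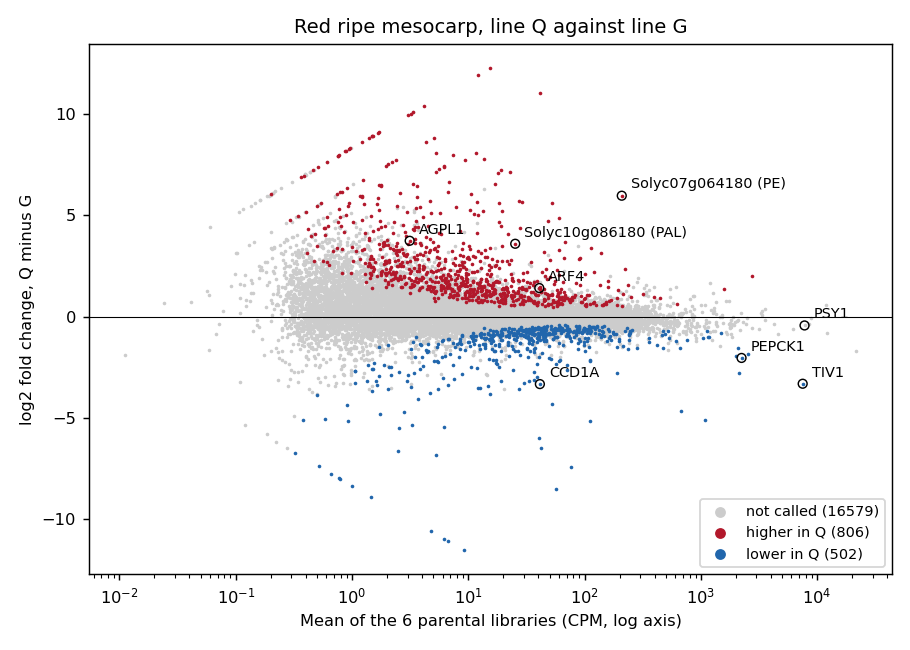
Log2 fold change of Q over G against the mean level in the 6 parental libraries (CPM, log axis), 1 point per gene, with 806 genes higher in Q in red, 502 lower in blue and 16579 not called in grey. Red points lie further to the left, at a median level of 8.86 CPM, than blue points, at 35.3 CPM. The lines of points at the left edges are genes at or near 0 in all libraries of 1 line, whose fitted size is not interpretable.

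The number of calls depended on which libraries were in the fit. It was 1576 without the third Q library, of which 1016 were shared with the 1308, and 2551 with the 6 parental libraries alone. It was 2207 without the first QxG library and 2936 without both of these. Leaving out any other parental library lowered it, to 547 and 494 for the first and second Q libraries and to 335, 392 and 459 for the first, the second and the third of the G libraries.

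To describe pathways, 339 genes known from tomato or related plants were arranged in 27 lists, and 264 of them were in the table. Of these, 20 were higher and 16 were lower in Q, which is 13.6% called, beside 7.31% of all genes. Their median log2 fold change was -0.03. The lists were written with results of these data already known, so the share is a description. Fewer cells of a type and less RNA per cell cannot be told apart in such bulk tissue.

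**Figure D3:**
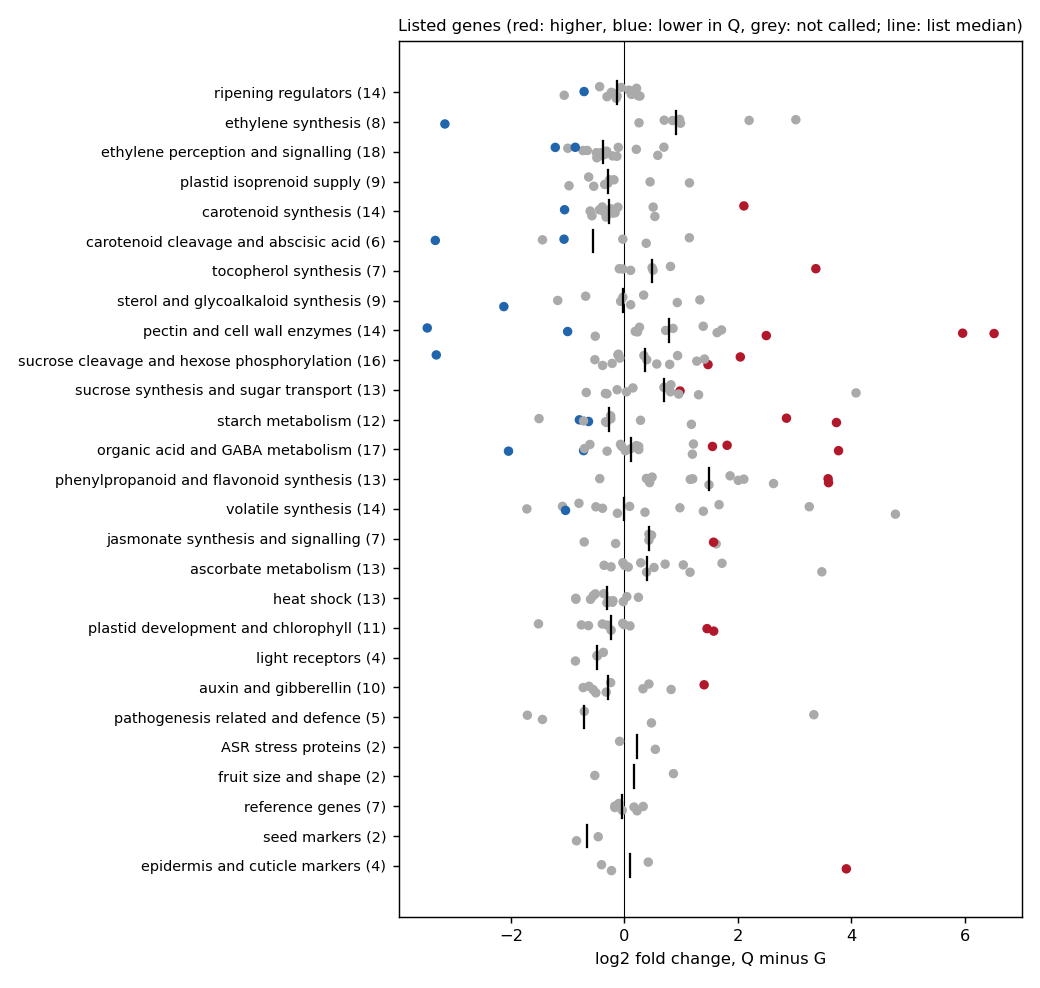
Log2 fold change of Q over G for the 264 measured genes of the 27 lists, 1 point per gene, with the number measured in parentheses and a black tick at each list's median. Red points are called higher in Q (20), blue points called lower (16) and grey points not called. The lists of starch, pectin and organic acid genes hold red and blue points on both sides of 0, whereas 12 of the 13 phenylpropanoid genes lie above 0.

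Genes that split, move and store sugars differed at several steps. Of 16 genes for sucrose cleavage and hexose phosphorylation, 2 were higher and 1 was lower in Q, with a median log2 fold change of 0.37. TIV1, for the invertase that cuts sucrose into glucose and fructose in the vacuole, was at 1409.5, 877 and 1834 CPM in the Q libraries and at 13895, 11994 and 15066 CPM in the G libraries. All Q fruits were far below all G fruits, and the hybrids, at 6156 to 16656 CPM, were above every Q fruit. The change was 9.94-fold down in Q (log2 -3.31, SE 0.392, adjusted p = 0.00122). SUS1, a sucrose synthase that splits sucrose in the cytosol, was at 164, 77.9 and 46.4 CPM in Q and at 20.8, 27.1 and 22.1 CPM in G. All Q fruits were above all G fruits, but Q spanned a wide range. SUS1 was 4.12-fold higher in Q (adjusted p = 0.0108; 0.0575 without the first G library). The hexokinase gene HXK1 lay at 17.6 to 21.4 CPM in Q and 6.53 to 8.15 CPM in G, without overlap (2.78-fold higher in Q, adjusted p = 0.0202). The cell wall invertase LIN5 was at 66.8, 67.3 and 77.4 CPM in Q and 32.0, 50.0 and 39.7 CPM in G, without overlap, and missed the threshold (adjusted p = 0.132). Of 13 genes for sucrose synthesis and sugar transport, 1 passed: SUT4, a sucrose transporter, at 12.5 to 23.0 CPM in Q and 8.48 to 10.4 CPM in G (adjusted p = 0.0445). The sucrose phosphate synthase SPS1, the most abundant of that list, had values of 438 to 723 CPM in Q and 675 to 735 CPM in G (adjusted p = 0.334). The calls of HXK1 and SUT4 ended without the first or the second Q library or any of the G libraries, with adjusted p up to 0.0869 and 0.159, and that of SUT4 also with the replicate number as a block.

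Starch genes moved in both directions. Of 12 measured, 2 were higher and 2 were lower in Q, and the median log2 fold change was -0.28. Both called higher encode subunits of ADP-glucose pyrophosphorylase, the enzyme that makes the glucose donor for starch. Its large subunit gene AGPL1 was at 8.38, 6.72 and 2.42 CPM in Q and at 0.539, 0.269 and 0.469 CPM in G. All Q fruits were above all G fruits, the third Q fruit the least. Its small subunit gene AGPS1 (Solyc07g056140) was at 19.7, 19.3 and 14.2 CPM in Q and at 2.60, 3.10 and 1.68 CPM in G, again with no overlap. The changes were 13.3-fold for AGPL1 (log2 3.74, SE 0.663, adjusted p = 0.00805) and 7.25-fold for AGPS1 (log2 2.86, SE 0.571, adjusted p = 0.0143). Starch synthases add that glucose to the growing chain, and 2 of their genes, SS2 and SS3, went the other way. SS2 (Solyc02g080570) was at 79.7, 80.3 and 82.8 CPM in Q and at 120.0, 128 and 128 CPM in G, and SS3 (Solyc02g071040) at 48.4 to 59.5 CPM in Q and 83.6 to 98.3 CPM in G. Both had tight groups without overlap, but small changes, 1.55-fold and 1.73-fold lower in Q (adjusted p = 0.0182 and 0.0177). The most abundant member, the starch synthase SS1, lay at 331, 357 and 508 CPM in Q and 464 to 526 CPM in G, and missed the threshold (adjusted p = 0.367). A further starch synthase gene, GBSS1, had a log2 fold change of 1.18 and also missed it (adjusted p = 0.0603). Without the third Q library GBSS1 was called higher in Q (log2 fold change 1.39, adjusted p = 0.0393). AGPS1 lost its call without any one G library (adjusted p up to 0.0661). SS2 and SS3 lost theirs without the first or second Q library or any G library (up to 0.0764 and 0.0835), and SS2 also with library totals as the scaling.

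Organic acids give tomato its acidity, citrate and malate above all. Of 17 genes that make or use organic acids or GABA, 3 were higher and 2 were lower in Q, with a median log2 fold change of 0.11. The aconitase gene Solyc12g005860, for the enzyme that turns citrate into isocitrate, was at 136, 129 and 139.7 CPM in Q and at 39.7, 54.1 and 44.3 CPM in G. The Q fruits were nearly alike and all above G (2.94-fold, log2 1.55, SE 0.211, adjusted p = 0.0025). Of 3 measured glutamate decarboxylase genes, whose enzymes make the amino acid GABA from glutamate, 1 was called higher and 1 lower in Q, and GAD3 was not called (log2 fold change 0.25, adjusted p = 0.616). GAD2 (Solyc11g011920) was at 44.9, 39.6 and 26.2 CPM in Q and at 10.9, 10.4 and 10.2 CPM in G, all Q fruits above all G fruits (3.51-fold higher, adjusted p = 0.0038). GAD1 was at 341, 339 and 501 CPM in Q and at 616, 755 and 572 CPM in G, all Q fruits below all G fruits (1.64-fold lower, adjusted p = 0.0437). PEPCK1 (Solyc04g076880), for phosphoenolpyruvate carboxykinase, which leads from organic acids towards sugars, was at 1129, 702 and 795 CPM in Q and 3906, 3920.4 and 2977 CPM in G. No fruits overlapped, and the level was 4.12-fold lower in Q (log2 -2.04, SE 0.510, adjusted p = 0.0344). PPDK (Solyc01g080280), whose enzyme makes phosphoenolpyruvate from pyruvate, lay at 1.30 to 7.91 CPM in Q and 0.135 to 0.352 CPM in G, the third Q fruit highest (adjusted p = 0.016). PEPCK1 did not pass in any of the 6 fits that left out a parental library (adjusted p 0.0639 to 0.125). GAD1 passed in only 1 of these, without the third Q library, and lost its call also in the fit to the parents alone and with RLE scaling. PPDK failed without any one G library (up to 0.0749).

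Cell wall genes held the 2 biggest fold changes among the called list members. Of 14 measured genes, 3 were higher and 2 were lower in Q, and the median log2 fold change was 0.79; without the third Q library it was -0.15. Pectinesterases remove methyl groups from pectin and so open it to degrading enzymes. The pectinesterase gene Solyc07g064180 was at 317, 575 and 341 CPM in Q and at 9.95, 4.17 and 5.55 CPM in G, with every Q fruit far above every G fruit (62.3-fold, log2 5.96, SE 0.906, adjusted p = 0.00378). Its neighbour in identifier order, the pectinesterase gene Solyc07g064170, was at 653, 614 and 1036 CPM in Q and 1454, 1733 and 1415 CPM in G. Here all Q fruits were below all G fruits (2.00-fold, adjusted p = 0.0421). Reads that match both neighbours could have been counted for either. The polygalacturonase beta subunit gene Solyc05g005560 was at 24.5, 74.8 and 1.54 CPM in Q and at 0.135 to 0.586 CPM in G, so the third Q fruit was close to G. Its fitted change, 91.6-fold, is the biggest of the called list members and rests on the first and second Q fruits (log2 6.52, SE 1.31, adjusted p = 0.0145; up to 0.072 without any one G library). EXPA5, an expansin, which loosens cell walls, was at 6.52, 4.80 and 2.14 CPM in Q and 0.882, 0.202 and 1.21 CPM in G, all Q fruits above all G fruits (adjusted p = 0.0231). The endoglucanase gene CEL1 was at 0.163 to 0.769 CPM in Q and 4.81 to 7.88 CPM in G (11.1-fold lower in Q, adjusted p = 0.0198). The genes best known from softening did not pass, PL with adjusted p = 0.713 and PG2A with 0.776. Their fitted direction turned from higher to lower in Q without the third Q library. The calls of Solyc07g064170 and CEL1 ended without the first or second Q library or any G library (adjusted p up to 0.159 and 0.0775), that of EXPA5 without the first or second library of either line (up to 0.0829), and that of Solyc07g064170 also with the replicate block.

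The 3 genes that edgeR called among those of ethylene synthesis and signalling were all lower in Q. DESeq2 called 1 synthesis gene higher and 1 lower, and 2 signalling genes higher and 3 lower, beside 2643 calls among all 17887 genes. Of 8 ethylene synthesis genes, only ACS1A passed in edgeR. In 7 of the 8 the log2 fold change was positive, with a list median of 0.91. Among these was ACO6, at 3.02 (adjusted p = 0.0501), and at 0.99 without the third Q library (adjusted p = 0.204). ACS1A encodes an ACC synthase, the enzyme that sets the rate of ethylene production. ACS1A was at 8.06, 11.3 and 0.605 CPM in Q and at 66.0, 44.5 and 70.2 CPM in G, all Q fruits below all G fruits and the third Q fruit the lowest (8.95-fold lower, log2 -3.16, SE 0.646, adjusted p = 0.0156; 0.0541 without the first G library). The ripening ACC synthase gene ACS2 was at 616, 669 and 2098 CPM in Q and 703, 549 and 451 CPM in G (adjusted p = 0.29). The ACC oxidase gene ACO1 was at 963, 854 and 3217 CPM in Q and 1117, 1129 and 845 CPM in G (adjusted p = 0.497). In both, the third Q fruit alone was far above the G range. Of 18 genes for ethylene perception and signalling, 0 were higher and 2 were lower in Q, 15 had a negative log2 fold change and 14 did not overlap between the lines, beside 38.4% of all genes. CTR1 encodes a kinase that keeps the ethylene response off. CTR1 was at 82.6, 81.3 and 115 CPM in Q and 247, 192 and 209 CPM in G, without overlap (2.32-fold lower in Q, log2 -1.22, SE 0.206, adjusted p = 0.00663). EBF1 (Solyc12g009560), for an F-box protein known in Arabidopsis to remove the factors that carry the ethylene response, was at 303, 337 and 401 CPM in Q and 637, 746 and 512 CPM in G, also without overlap (1.82-fold lower, adjusted p = 0.0382). The receptor gene NR was at 837, 807 and 1350.2 CPM in Q and at 1550.2, 1798 and 1611 CPM in G; the groups did not overlap, but it did not pass (adjusted p = 0.0743; 0.0124 without the third Q library). Among 14 ripening regulators, only ERF6, an ethylene response factor, passed, at 841, 834 and 915 CPM in Q and 1491, 1449.5 and 1291 CPM in G (1.63-fold lower, adjusted p = 0.0465). The calls of EBF1 and ERF6 were lost without the first or second Q library or any G library (up to 0.142 and 0.152) and with library totals as the scaling, and that of ERF6 also with RLE scaling, with a minimum of 5 CPM and with the replicate block. RIN, the MADS-box factor that switches on ripening, lay at 643 to 885 CPM in Q and 812 to 1059 CPM in G (adjusted p = 0.406), and the NAC factor gene NOR at 184, 194 and 392 CPM in Q and 199 to 237 CPM in G (adjusted p = 0.623).

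In the carotenoid pathway, an early desaturase was lower and a late hydroxylase higher in Q. PDS, the phytoene desaturase that acts just after phytoene is made, was at 98.5, 93.0 and 128 CPM in Q and 213, 217 and 232 CPM in G, all Q fruits below all G fruits (2.07-fold lower, adjusted p = 0.0339). CYP97C11, which hydroxylates the epsilon ring on the way to lutein, was at 11.6, 11.5 and 9.18 CPM in Q and 1.91, 3.23 and 2.38 CPM in G, all Q fruits above all G fruits (4.31-fold higher, log2 2.11, SE 0.288, adjusted p = 0.00262). These were the 2 calls among 14 carotenoid synthesis genes, whose median log2 fold change was -0.28. PSY1 was at 5140.5, 5195 and 9515 CPM in Q and 9235, 8760.4 and 8909 CPM in G (adjusted p = 0.406), the first and second Q fruits below G and the third above it. The call of PDS ended without the first or second Q library or any G library (up to 0.135). None of the 9 genes that supply the plastid with isoprenoid precursors passed in edgeR. An unadjusted p under 0.05 was found in 2 of them, beside 4584 of all 17887 genes. DESeq2 called 1 of them, higher in Q, beside 2643 of all genes. Without the third Q library 2 were called, CMK and GGPPS2, both lower in Q (adjusted p = 0.047 and 0.0181), and the median log2 fold change moved from -0.29 to -0.51. Both measured carotenoid cleavage dioxygenase genes of the CCD1 type, whose enzymes turn carotenoids into aroma compounds, were lower in Q. CCD1A was at 8.14, 7.49 and 6.70 CPM in Q and 59.8, 90.4 and 75.1 CPM in G (10.1-fold lower, log2 -3.33, SE 0.174, adjusted p = 2.13e-06). CCD1B was at 285, 314 and 429 CPM in Q and 635, 817 and 694 CPM in G (2.09-fold lower, adjusted p = 0.00791). Neither showed any overlap between the lines. They are neighbours in identifier order and may share reads. Of the 6 cleavage and abscisic acid genes, no other passed.

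The biggest change among the vitamin E genes was in the reductase that makes the tocopherol side chain. GGDR (Solyc03g115980), the geranylgeranyl reductase that supplies phytyl chains for tocopherols and chlorophyll, was at 34.6, 25.1 and 23.7 CPM in Q and at 1.96, 3.23 and 2.85 CPM in G. Every Q fruit was far above every G fruit (10.4-fold, log2 3.38, SE 0.392, adjusted p = 0.00116). The other 6 tocopherol genes did not pass; VTE2, the most abundant, was at 45.4, 44.6 and 71.8 CPM in Q and 39.6, 34.3 and 39.8 CPM in G (adjusted p = 0.167). Of 11 plastid development and chlorophyll genes, 2 were higher in Q and 0 lower. APRR2L (Solyc08g077230), a pseudo-response regulator-like factor linked in tomato to plastids and pigment in green fruit, was at 53.1, 40.7 and 52.2 CPM in Q and 14.1, 23.4 and 15.8 CPM in G, without overlap (2.75-fold higher, log2 1.46, SE 0.206, adjusted p = 0.00318). Solyc03g005760, a gene for a chlorophyll a/b-binding protein of the light-harvesting complex, was at 18.4, 8.95 and 19.3 CPM in Q and 3.82, 5.59 and 6.22 CPM in G (2.98-fold higher, adjusted p = 0.0333). This call was lost without the first or the third Q library or any G library (up to 0.129). The other 2 measured genes of this kind did not pass, RBCS2, for the small subunit of Rubisco, with 107, 43.6 and 175 CPM in Q and 186, 275 and 470.2 CPM in G (adjusted p = 0.10), and Solyc07g047850, another chlorophyll a/b-binding protein, with 9.36 to 16.4 CPM in Q and 15.8 to 22.0 CPM in G (adjusted p = 0.186). SGR1, which starts the removal of chlorophyll, had means of 1462 CPM for Q and 1464 CPM for G (adjusted p = 0.998). None of the 4 light receptor genes passed in edgeR; their log2 fold changes were -0.86 to -0.37, and all 4 were without overlap between the lines, as were 38.4% of all genes. Of the 4, 2 had an unadjusted p under 0.05, beside 4584 of all 17887 genes. DESeq2 and edgeR without the third Q library each called 1, lower in Q, beside 2643 and 1576 of all genes.

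**Figure D4:**
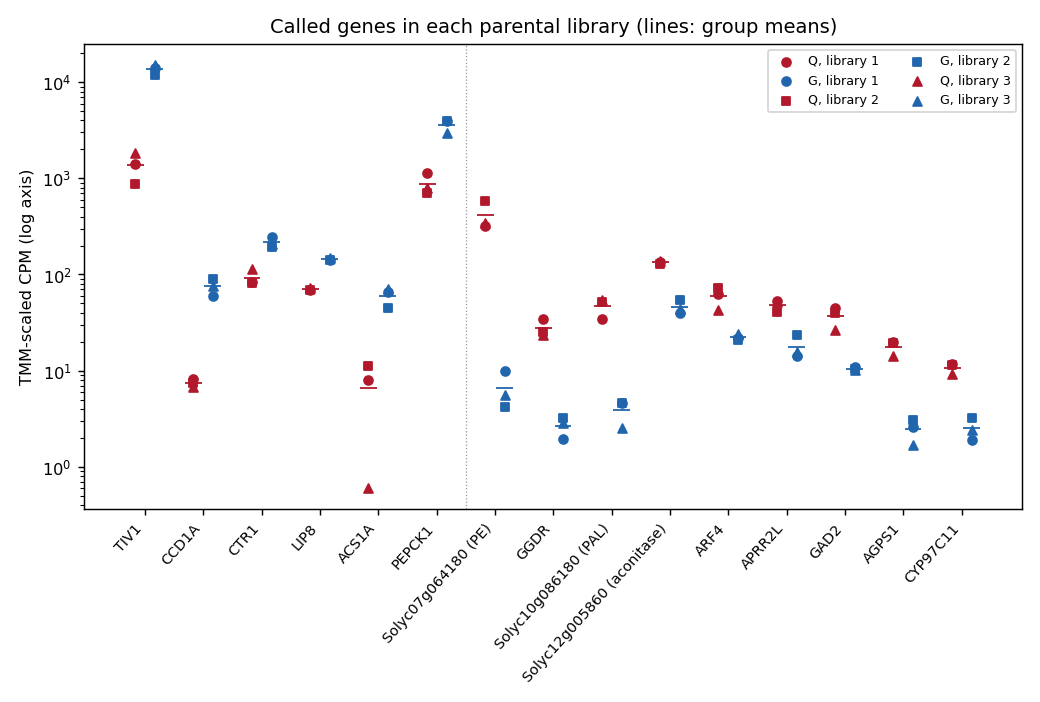
TMM-scaled CPM (log axis) of 15 called genes in each parental library, Q in red and G in blue, with symbols for libraries 1 to 3 and a short line at each line's mean. The 6 genes left of the dotted line were lower in Q and the 9 right of it higher. No gene shown has an overlap between Q and G, and the third Q library (red triangle) stands apart in ACS1A, at 0.605 CPM.

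Of 13 phenylpropanoid genes 2 passed, both higher in Q. The log2 fold change was positive in 12 of the 13, with a median of 1.49, beside 0.00721 over all genes. Only 6 of the 13 averaged at least 5 CPM in the parental libraries. The fit with a minimum of 5 CPM over all libraries kept 5, with a median of 1.57. The phenylalanine ammonia-lyase gene Solyc10g086180, for the first step of the pathway, was at 34.5, 51.3 and 54.4 CPM in Q and at 4.61, 4.58 and 2.50 CPM in G, all Q fruits above all G fruits (12.1-fold, log2 3.59, SE 0.561, adjusted p = 0.00443). CHI (Solyc05g010320), a chalcone isomerase of the flavonoid branch, was at 3.08, 2.2 and 4.18 CPM in Q and at 0.195 to 0.337 CPM in G, without overlap (12.1-fold, adjusted p = 0.00492). HQT, for the enzyme that makes chlorogenic acid, was at 152, 148 and 61.3 CPM in Q and 66.7, 49.3 and 45.3 CPM in G, where the third Q fruit overlapped G (adjusted p = 0.137). The other phenylalanine ammonia-lyase genes that averaged at least 5 CPM split in the same way. Solyc09g007900 was at 42.9, 27.8 and 4.45 CPM in Q and 4.36, 3.37 and 12.7 CPM in G (adjusted p = 0.125; 0.0264 without the third Q library).

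Of 14 volatile genes, 1 passed. LIP8 (Solyc09g091050), a lipase that in tomato releases the fatty acids from which fatty acid-derived volatiles are made, was at 69.5, 69.8 and 71.8 CPM in Q and at 141, 142 and 150.0 CPM in G. The groups were tight and apart (2.05-fold lower in Q, log2 -1.04, SE 0.165, adjusted p = 0.00481). The most abundant member, the lipoxygenase gene LOXB, was at 4698, 4406 and 21056 CPM in Q and 29574, 42403 and 27206 CPM in G. All Q fruits were below G, the third much closer to it, and the gene did not pass (adjusted p = 0.0847; 0.00221 without the third Q library). TomLoxC, the lipoxygenase of the volatile route, was at 229, 224 and 667 CPM in Q and 279.7, 509 and 429.5 CPM in G (adjusted p = 0.876). In the jasmonate list, OPR3, a reductase of jasmonate synthesis, was at 14.3, 16.5 and 9.01 CPM in Q and at 4.38 to 4.51 CPM in G, the only one of 7 to pass (2.97-fold higher, adjusted p = 0.0418). The most abundant gene of that list, the factor MYC2, was at 247, 207 and 144 CPM in Q and 361, 255 and 360.2 CPM in G (adjusted p = 0.0841). OPR3 failed without the first or second Q library or any G library (up to 0.139) and with the replicate block.

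ARF4 was the only call among 10 auxin and gibberellin genes. It encodes an auxin response factor. ARF4 was at 63.0, 72.3 and 42.4 CPM in Q and 22.0, 20.9 and 24.2 CPM in G, all Q fruits above all G fruits (2.65-fold higher, log2 1.41, SE 0.222, adjusted p = 0.00457). Among 9 sterol and glycoalkaloid genes, GAME5 (Solyc10g085240), a glycosyltransferase that acts on the bitter alkaloids of green fruit during ripening, was at 39.0, 52.5 and 34.3 CPM in Q and 244, 179 and 126 CPM in G (4.36-fold lower in Q, adjusted p = 0.0354). That call was lost in each of the 6 fits that left out a parental library (0.0604 to 0.122) and with library totals as the scaling. HMGR2, for an HMG-CoA reductase and the most abundant of the list, did not pass (adjusted p = 0.0673).

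Several lists held no gene called by edgeR. Among 13 ascorbate genes the log2 fold change was positive in 10, with a median of 0.39. An unadjusted p under 0.05 was found in 7, beside 4584 of all 17887 genes. DESeq2 called 5 and edgeR without the third Q library 3, all higher in Q, beside 2643 and 1576 of all genes. The most abundant, GGP1, a control step of ascorbate synthesis, was at 580.3, 681 and 472 CPM in Q and 625, 737 and 676 CPM in G (adjusted p = 0.433). Among 13 heat shock genes 0 had an unadjusted p under 0.05, DESeq2 called 0, and the median log2 fold change was -0.31. Without the third Q library 4 were called lower in Q and the median was -0.76. Their summed level was 7910 and 8710 CPM in the first and second Q libraries, 18200 CPM in the third and 14500 to 16500 CPM in G. HSP101, a chaperone that takes protein aggregates apart, was at 1729, 1984 and 3834 CPM in Q and 3400.3, 4390.5 and 3612 CPM in G (adjusted p = 0.271; 0.0393 without the third Q library). Of the 5 defence genes none passed in edgeR, 1 had an unadjusted p under 0.05, and DESeq2 called 1, higher in Q. The most abundant, NP24, an osmotin-like protein, was at 968, 1046 and 341 CPM in Q and 1866, 2801 and 1735 CPM in G (adjusted p = 0.223). ASR1, a stress and ripening protein, was at 9500.3 to 19969 CPM in Q and 8495 to 10962 CPM in G (adjusted p = 0.313). Neither edgeR nor DESeq2 called any of the 2 ASR genes, the 2 fruit size and shape genes or the 7 reference genes, none of which had an unadjusted p under 0.05. The log2 fold changes of the reference genes lay between -0.17 and 0.33.

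Markers of tissues next to the mesocarp were few in the table, and 1 of them was called. Of 11 skin and cuticle markers 4 were in the table, and their summed level was 17.5 to 29.8 CPM in Q and 15.9 to 16.5 CPM in G. CER6, which lengthens the fatty acids of cuticular wax, passed, at 8.18, 12.8 and 3.52 CPM in Q and 0.098, 1.01 and 0.547 CPM in G (15.1-fold higher in Q, adjusted p = 0.0313; up to 0.121 without the first or second Q library or any G library). The epidermal factor CD2 was at 8.46 to 9.89 CPM in Q and 10.2 to 11.2 CPM in G (adjusted p = 0.751). Of 6 seed markers 2 were in the table, both oleosins, and their summed level was 18.8 and 16.4 CPM in the first and second Q libraries, 129 CPM in the third and 62.6 to 91.1 CPM in G. Without the third Q library the oleosin Solyc06g060840 was lower in Q (log2 fold change -2.16, adjusted p = 0.0193), and with it the gene did not pass (adjusted p = 0.718). What part skin or seed RNA has in any call was not tested.

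Among the 264 listed genes, 33 of the 36 calls were also made without the third Q library, 3 were lost and 27 were gained. The 3 lost were PEPCK1, GAME5 and Solyc03g005760. Of those gained, 13 were higher and 14 lower in Q. Among the lower were LOXB, the heat shock protein gene Solyc06g036290 (568, 499.9 and 2539 CPM in Q), the carotenoid isomerase ZISO (1082, 1192 and 1994 CPM in Q) and GGPPS2, which makes the carotenoid precursor geranylgeranyl diphosphate (46.7, 44.3 and 224 CPM in Q). In G these were at 1742 to 2932, 2083 to 2153 and 173 to 231 CPM for the last 3, so that the third Q fruit was inside or near the G range and the other Q fruits were below it. Among the higher were the ascorbate oxidase gene AO (26.8, 14.9 and 0.824 CPM in Q, 0.343 to 2.58 CPM in G) and LOXD, a lipoxygenase of the jasmonate route (55.2, 35.4 and 5.11 CPM in Q, 5.25 to 17.1 CPM in G). Here too the third Q fruit was at the G level. These genes were named after their values were seen.

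Some genes were found in 1 line and not in the other. By identifier, which carries no name here, Solyc09g091615 was at 27.5, 30.1 and 33.9 CPM in Q and at 0 counts in every G fruit, at least 618-fold higher against a floor of 3 counts over the G group. Solyc10g086780 was at 26.1, 26.2 and 21.0 CPM in Q and at 0 counts in G, at least 495-fold higher. In the other direction, Solyc05g006370 was at 18.9, 16.2 and 19.5 CPM in G and 0 counts in Q, at least 413-fold lower in Q, and Solyc05g006140 was at 11.7, 14.3 and 13.8 CPM in G and 0 in Q, at least 301-fold lower. A sequence that maps to the reference from 1 parental allele only cannot be told apart here from a transcript made in 1 line only. Taking the chromosome from the identifier, the share of tested genes called was 10.6% on chromosome 10 (67 higher and 58 lower in Q) and 9.55% on chromosome 1 (126 higher and 98 lower). The others ran from 4.98% on chromosome 12 to 8.27% on chromosome 5.

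The reciprocal hybrids carry the same 2 parental genomes and differ in which line was the seed parent. Whether the Q to G difference was also a QxG to GxQ difference was tested in the same fit, as the difference between both log2 fold changes, which share no library. It was called for 1852 of the 17887 genes (10.4%), for 551 of the 1308 genes called between the parents, and for 18 of the 36 called list genes. The tested difference contains the Q to G difference by which the 1308 and the 36 genes were called. Their shares are therefore raised by that choice and cannot be compared with the share of all genes. In TIV1, CCD1A and GGDR, the hybrids were close to each other. The TIV1 mean was 12711 ± 3423 CPM for QxG and 9573 ± 3674 CPM for GxQ (SD, n = 3 each). CCD1A was at 32.1 ± 3.33 and 31.6 ± 1.30 CPM, between the parents, and GGDR was at 6.31 ± 3.03 and 5.32 ± 1.77 CPM, nearer to G. The differences from the parental contrast were -3.72, -3.36 and 3.14 on the log2 scale (adjusted p = 0.00212, 3.45e-05 and 0.00396). The aconitase gene Solyc12g005860 ran in the opposite direction in the hybrids, with 96.9, 53.5 and 72.3 CPM in QxG and 659, 783 and 801 CPM in GxQ. GxQ was above both parents in every library, and the difference between both contrasts was 4.89 (adjusted p = 1.73e-05). CEL1, EXPA5 and SUS1 were among other genes with hybrid contrasts of the opposite sign, at 2.23, -1.61 and -0.61. Of the 18 list genes only Solyc07g064180, GGDR, CHI and CYP97C11 had hybrid contrasts of the parental sign, at 1.54, 0.24, 0.49 and 0.66. Some opposite contrasts were near 0, such as 0.02 for CCD1A. For the other 18 called list genes the difference was not called, among them ACS1A (QxG 24.3 to 27.6 and GxQ 44.8 to 107 CPM, adjusted p = 0.286), PEPCK1 (0.14) and CTR1 (0.0641). This does not show that the hybrids differ as the parents do.

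**Figure D5:**
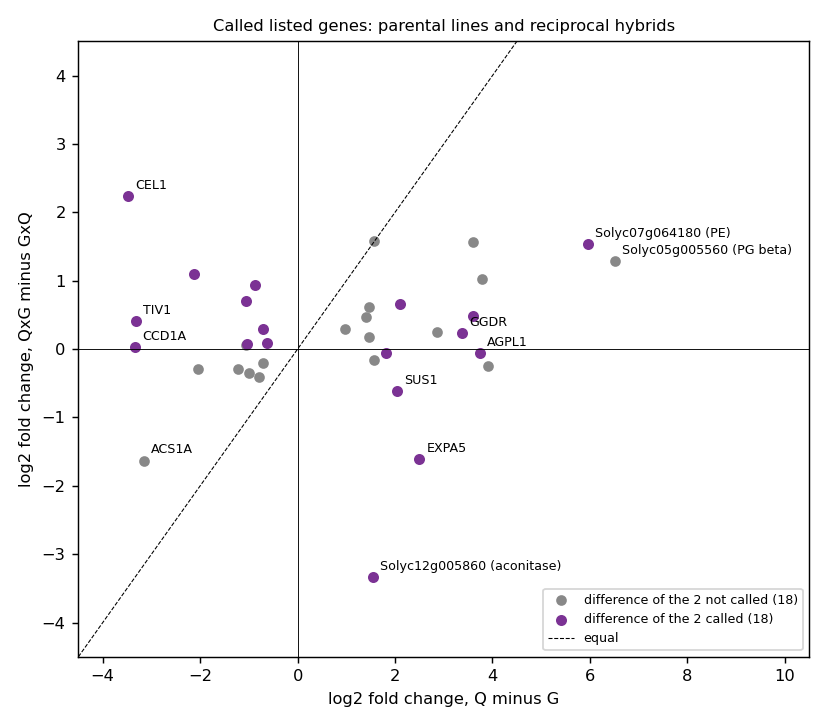
Log2 fold change of QxG over GxQ against that of Q over G for the 36 list genes called between Q and G, 1 point per gene. Purple points (18) are genes in which the difference between both contrasts was called, grey points (18) those in which it was not, and the dashed line marks equal values. TIV1 and CCD1A lie at -3.31 and -3.33 across and at 0.41 and 0.02 up, and Solyc12g005860 lies at 1.55 across and -3.33 down.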

How the data were processed

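Each library is RNA from the mesocarp of 1 red ripe fruit, and its group is the genotype in the labels. The authors deposited a table of whole-number read counts per gene; although its name calls it normalized, it holds only whole numbers with unequal library totals, and these were used as raw counts. All columns were matched to samples by name, and 0 were left over. Per the submitters' processing notes, which give no roles, the tools were R 4.0.3, edgeR, Subread with featureCounts, HISAT2 2.1.0, fastp 0.21 and FastQC. Not given in the sources used here are the build, the annotation, the strand setting and how multimapping reads were handled, so near-identical copies and overlapping or antisense genes may share reads, and wild-parent alleles may map less well. No coordinates or sequences are printed.

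The test was the quasi-likelihood F test of edgeR 4.0.16 in R 4.3.3 (glmQLFit, glmQLFTest) on the counts, with TMM scaling and 1 mean per genotype over all 12 libraries. The contrasts were Q minus G, and that minus the QxG to GxQ difference. P-values were adjusted by the Benjamini-Hochberg method over all 17887 genes, and genes were called under 0.05. With 8 residual degrees of freedom, the common coefficient of biological variation came to 0.309. Standard errors were taken as the log2 fold change over the root of F. Before correlations 0.5 CPM was added to each value and log2 taken. A floor of 3 counts over a group gave the bounds for genes at 0. The fit was tested on simulated data of 17887 genes: of 100 genes changed 2-fold 48 were recovered, and of 100 changed 4-fold, 85, with 6 false calls among the unchanged genes. All changed genes averaged at least 5 CPM, and no simulated library stood apart from its group. The simulation therefore does not cover genes of lower level or the effect of the third Q and first QxG libraries. Within each line, no pair of libraries agreed within sampling noise (chi-square per gene 15.3 to 139). Depth limits precision chiefly for genes of a few CPM.

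The comparison, the lists and the tests were chosen with earlier results of these data known. Named are every called list gene, the most abundant gene of each list, a set of ripening genes (RIN, NOR, PSY1, PG2A, PL, ACS2, ACO1, LIN5, TomLoxC, PEPCK1), and the 2 unlisted genes with the largest rise and the 2 with the largest fall; any other gene was named after its values were seen. The values of 1 gene that this rule names are not reported here. Identifiers matched none of the 41476 RefSeq genes (assembly SLM_r2.1). Of 339 list names, 210 were the symbol of exactly 1 RefSeq gene, 202 of these on the chromosome of the identifier. Names printed with an identifier in parentheses rest on the lists alone, as do NR, RIN, SPS1, SS1, VTE2, HSP101, GAD3 and GGPPS2. Alternatives were other scalings, filters, sets of libraries, the replicate number as a block, glmTreat and DESeq2 1.42.0.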

Additional observations from a re-analysis of the deposited data

Results flagged for a closer look

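In 23 named genes the Q minus G difference differed from the QxG minus GxQ difference in the same edgeR fit (adjusted p under 0.05 over all genes; 10.4% of all genes were called in this way). Values below are the parental log2 fold change minus the hybrid one. For genes called between the parents, this difference contains the value by which they were called.

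In genes higher in Q the difference was 4.89 for the aconitase gene Solyc12g005860 (ACO3B), 4.42 for the pectinesterase gene Solyc07g064180 (PE2), 4.11 for EXPA5, 3.80 for AGPL1 and 3.14 for GGDR. It was 3.11 for CHI, 2.65 for SUS1, 1.87 for GAD2 and 1.44 for CYP97C11. Of these 9 genes, Solyc12g005860, EXPA5, SUS1, GAD2 and AGPL1 had a hybrid log2 fold change below 0.

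In genes lower in Q the difference was -5.71 for CEL1, -3.72 for TIV1, -3.36 for CCD1A, -3.22 for GAME5 and -1.80 for EBF1. It was -1.76 for CCD1B, -1.11 for LIP8, -1.01 for ERF6 and -0.72 for SS2. All 9 had a hybrid log2 fold change above 0, from 0.02 for CCD1A to 2.23 for CEL1.

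In genes not called between the parents the difference was 3.18 for HQT, 1.82 for OVATE, -2.17 for HSP101, -1.46 for PL and -1.33 for NR. OVATE, a fruit shape gene, was at 4.96 to 12.2 CPM in QxG and 33.1 to 53.3 CPM in GxQ, with the parents at 6.65 to 16.5 CPM. HSP101 was at 2591 to 4441 CPM in QxG and 1083 to 1514 CPM in GxQ.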

How the results depend on the processing

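The count of genes called between Q and G was 1308, 806 higher and 502 lower in Q, and 1852 genes were called for the difference between the parental and hybrid contrasts. With RLE scaling, a minimum of 5 CPM or filterByExpr these counts stayed within 1.5 times. Library totals left 254 genes lower in Q. The fit to the parents alone called 2551 (1600 higher, 951 lower), DESeq2 2643 (1670 and 973; 2864 for the difference of contrasts), and glmTreat against 1.5-fold 350 (240 and 110; 1065). Without both the first QxG and the third Q library the counts were 2936, 1780, 1156 and 3694. Without single libraries they ran from 335 (without the first G library) to 2207 (without the first QxG library), from 182 to 1405 higher, from 153 to 802 lower, and from 1021 to 2692 for the difference of contrasts. A fit of fewer parental libraries has fewer residual degrees of freedom; why the count rises without the third Q or first QxG library was not tested.

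The deviations of Q and G libraries with the same replicate number correlated at -0.121, -0.0883 and -0.244, none of them positive. With 3 libraries a line these deviations are not independent, and those of Q include the third library, which stood apart. The values therefore cannot tell whether libraries of the same number shared a plant or a harvest day. With the replicate block 1320 genes were called, 774 higher and 546 lower, 1132 of them shared with the 1308, and 1732 for the difference of contrasts.

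Counts of genes in which a library stood apart by 1.5-fold, by 4-fold, and by 2-fold at a minimum of 1 CPM were 209, 10 and 135 for the first Q library, 160, 1 and 91 for the second and 2382, 191 and 1419 for the third. They were 276, 4 and 136, then 566, 4 and 208, then 316, 6 and 141 for the G libraries. The third Q library had the highest count in each.

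Of 1098 values for 69 named genes, 936 kept their direction and call, 122 lost a call, 19 gained one and 21 turned in sign. Of 40 called named genes, 19 kept their call without any single parental library and 16 in every alternative run for them; AGPL1 and CHI, among the 16, are under the 5 CPM minimum and had no value there. Those that turned were not called. Without the third Q library, and without it and the first QxG library, the log2 fold change was -0.17 and -0.18 for ACO1, -0.18 and -0.20 for NOR, -0.80 and -0.81 for PG2A, and -0.21 and -0.22 for PL; without other single libraries it reached 1.03, 0.45, 0.65 and 0.38. SGR1, at -0.00, became 0.014 in the parents alone, 0.023 with RLE and with DESeq2, 0.14 with library totals, 0.052 at a minimum of 5 CPM, and -0.40 to 0.23 without single libraries. TomLoxC ranged from -0.83 without the third Q library to 0.15 without the second Q library, and was positive without the first or second Q or the second G library. The cause of these changes was not tested.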
